A study of Mus musculus with 3 samples.

Results

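Cholesterol synthesis, sterol transport and their transcriptional control were followed in 3 RNA sequencing libraries of mouse keratinocytes, the epithelial cells of the epidermis, through 29 named genes chosen for their roles in that pathway. All 29 were found by symbol among the 41214 gene identifiers of the count tables, lay on 16 chromosomes, and reached a level of 1 CPM (a count scaled by library size to a common total) in at least 1 library, as did 11865 genes in all. The cells were of strain C57BL/6, immortalised with SV40, and taken during exponential growth. The labels give 1 library each for an ARPC4 knockout (ARPC4 ko), for cells expressing Nrf2 fused to the fluorescent protein EGFP (Nrf2-EGFP), and for wild type (wt). ARPC4 belongs to the Arp2/3 complex, the starter of branched actin networks, and Nrf2, encoded by Nfe2l2, is a transcription factor of the antioxidant response. All 3 titles carry the designation MI338, the ARPC4 ko title adds the word Cre and the Nrf2-EGFP title the word High. Which exons were deleted, whether the wt cells carry a conditional Arpc4 allele, which promoter drives the fusion, whether each line is 1 clone, and in which medium and at what density cells grew is not stated in the sources used here.

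Keratinocytes make cholesterol from acetyl-CoA, and cholesterol is one of the barrier lipids of the stratum corneum. The early enzymes convert acetyl-CoA to mevalonate and on to farnesyl pyrophosphate, the middle ones join this to squalene and close the rings to lanosterol, and the late ones turn lanosterol into cholesterol. When membrane sterol is low, the escort protein SCAP carries SREBP precursors from the endoplasmic reticulum to the Golgi, where cleavage releases the transcription factors that activate these genes, whereas INSIG proteins hold SCAP back when sterol is plentiful. Oxysterols act in the other direction through the nuclear receptor LXR, which activates the efflux transporters ABCA1 and ABCG1.

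With 1 library per genotype, the spread between cultures was not measured, no test of genotypes was possible, and no p-value is printed. The range in parentheses after a fold or ratio is an exact 95% interval of the ratio of counts between 2 libraries and covers counting error only. A gene was counted as past the 2-fold or the 1.5-fold rule where its log2 fold (of CPM + 0.5) was at least that large and this interval excluded 1. Of the targeted genes, Arpc4 had 61.0 CPM in ARPC4 ko, 98.4 in Nrf2-EGFP and 94.2 in wt, 1.54-fold (1.44 to 1.65) lower in ARPC4 ko than in wt. Arpc4 was thus still counted in the ARPC4 ko library, with 1483 counts against 2118 in wt, and these counts do not settle whether that label holds. Nfe2l2 had 179 CPM in ARPC4 ko, 166 in Nrf2-EGFP and 225 in wt, so it was 1.35-fold (1.296 to 1.41) lower in the library labelled Nrf2-EGFP than in wt. The label gives no level of Nfe2l2 RNA, and these counts do not settle whether the Nrf2-EGFP label holds. Whether reads of the fusion were counted to the gene was not tested, and each library is called by its label throughout. Gene counts were 23033863 in ARPC4 ko, 25723959 in Nrf2-EGFP and 22924294 in wt. Of 8 keratinocyte markers 7 passed the filter, and the summed level of the 8 was 11740 CPM in ARPC4 ko, 16356 in Nrf2-EGFP and 21985 in wt. Levels of single markers are not given, so whether each has this order is not shown. Markers of other cell types were near 0: the sums of 8 fibroblast markers (5 of them at 0 in every library, Col1a2 and Dcn among these), 6 immune, 5 melanocyte, 4 endothelial and 5 adipocyte or sebocyte markers lay between 0.452 and 6.29 CPM.

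Members past the 1.5-fold rule in ARPC4 ko against wt included Hmgcs1, Mvd, Lss and Hsd17b7. The sequence before their start sites is shown because these genes were lower in ARPC4 ko, and because Hsd17b7, unlike Hmgcs1 and Lss, was at the wt level in Nrf2-EGFP. The sequences are from RefSeq (GRCm38.p6, the assembly of mm10), begin 250 bases before the RefSeq start, run 5′ to 3′ on the gene's strand and stop before the first exon that GENCODE M21 annotates for the gene. Hmgcs1 is at chr13:119690101-119690350 (plus strand), Mvd at chr8:122443423-122443672 (minus), Lss at chr10:76531355-76531587 (plus) and Hsd17b7 at chr1:169969242-169969455 (minus). For Hsd17b7, 47 of the bases are also annotated as exon of 3110045C21Rik, a noncoding gene on the opposite strand. Capitals mark matches to TCACNCCAC (a sterol regulatory element, the site bound by SREBP), ATTGG (the inverted CCAAT box, bound by NF-Y) or GGGCGG (the GC box, bound by Sp1) on either strand.
Hmgcs1: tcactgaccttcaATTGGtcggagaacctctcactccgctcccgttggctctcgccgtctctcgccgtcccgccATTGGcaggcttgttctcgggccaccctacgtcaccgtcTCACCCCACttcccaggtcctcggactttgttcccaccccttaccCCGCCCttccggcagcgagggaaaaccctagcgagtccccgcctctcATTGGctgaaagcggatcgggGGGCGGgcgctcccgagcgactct
Mvd: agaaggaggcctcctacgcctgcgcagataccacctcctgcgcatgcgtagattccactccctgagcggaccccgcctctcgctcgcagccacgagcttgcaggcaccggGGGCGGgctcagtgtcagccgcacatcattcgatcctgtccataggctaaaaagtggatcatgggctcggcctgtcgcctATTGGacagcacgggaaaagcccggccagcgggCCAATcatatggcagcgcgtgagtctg
Lss: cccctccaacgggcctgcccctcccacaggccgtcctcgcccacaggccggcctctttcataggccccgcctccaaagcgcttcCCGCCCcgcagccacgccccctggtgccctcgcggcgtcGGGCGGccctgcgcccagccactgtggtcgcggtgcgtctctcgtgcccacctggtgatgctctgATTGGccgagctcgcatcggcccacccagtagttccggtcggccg
Hsd17b7: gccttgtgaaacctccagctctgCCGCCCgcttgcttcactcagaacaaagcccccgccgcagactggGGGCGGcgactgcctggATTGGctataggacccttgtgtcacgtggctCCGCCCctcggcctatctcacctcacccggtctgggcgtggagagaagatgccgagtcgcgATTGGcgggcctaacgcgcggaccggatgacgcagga
In Hmgcs1 the single sterol element began 137 bases before the start, between CCAAT boxes at 176 and 45 bases. Mvd had CCAAT boxes on both strands, at 60 and 27 bases. Idi1, whose sequence is not printed because GENCODE M21 annotates 105 of its 250 bases as exon, had CCAAT boxes at 45 and 14 bases and a GC box at 69 bases.

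A window was found for 23 of the 29 genes, and Fdps, Fdft1, Sqle, Stard4, Npc1 and Abcg1 had none. Among the 23, a CCAAT box was in 19 (82.6%), against 41.1% of the 9264 genes with a window that passed the filter and 37.5% of all 27025 genes with a window. The GC box was in 21 (91.3%), against 66.4% and 35.4%. Both lay in the same window in 17 genes (73.9%), against 24.99% and 12.5%. The 9-base sterol element was found in Hmgcs1 alone (4.35% of the 23, against 1.26% and 1.22%), and the 10-base form, with an A before it, was found in none (0.173% and 0.226%). The E-box CACGTG, which SREBP also binds, was in 6 genes (26.1%, against 10.04% and 6.86%), and the antioxidant response element TGACNNNGC, the site of Nrf2, was in Mvk, Pmvk and Dhcr7 (13.0%, against 14.0% and 11.5%). All motifs were searched on both strands and a gene with several windows counted once. These matches describe letters in the windows and were not tested, and a gene without a match lacks only those letters in that window.

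The synthesis enzymes as a group were lowest in ARPC4 ko. The summed level of all 19 was 3783 CPM in ARPC4 ko, 4922 in Nrf2-EGFP and 6116 in wt, which is 0.399%, 0.475% and 0.600% of each library's gene counts in that order. It was thus 38.2% lower in ARPC4 ko and 19.5% lower in Nrf2-EGFP than in wt. Of the 19 enzymes, 18 had a log2 fold below 0 in ARPC4 ko against wt, and their median was -0.44. In Nrf2-EGFP against wt 13 were below 0, with a median of -0.08. Over all 11865 genes compared, 51.5% were below 0 and 48.5% above it in ARPC4 ko (median -0.01), and 49.5% below and 50.5% above in Nrf2-EGFP (median 0.0049). With scaling by total counts 17 enzymes were below 0 in ARPC4 ko, with a median of -0.34. Both comparisons share the wt library. Less RNA of a gene per cell and fewer cells making it cannot be told apart in such bulk samples, and the part of the keratinocyte marker sum, which has the same order of libraries, was not tested.

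The 3 segments of the pathway differed from wt by unequal amounts. The 7 mevalonate-step genes summed to 1526 CPM in ARPC4 ko, 1851 in Nrf2-EGFP and 2926 in wt, a ratio to wt of 0.521 (0.515 to 0.528) in ARPC4 ko and 0.633 (0.625 to 0.640) in Nrf2-EGFP. The squalene and lanosterol steps summed to 658 CPM in ARPC4 ko, 868 in Nrf2-EGFP and 1102 in wt, ratios of 0.597 (0.586 to 0.609) and 0.787 (0.773 to 0.802). The 9 genes from lanosterol to cholesterol summed to 1599 CPM in ARPC4 ko, 2203 in Nrf2-EGFP and 2088 in wt. For this last segment the ratio to wt was 0.766 (0.755 to 0.776) in ARPC4 ko but 1.05 (1.04 to 1.07) in Nrf2-EGFP. The early segment was therefore below wt in both libraries, and the late segment in ARPC4 ko alone. Without Hmgcs1 and Idi1, left out after their values were seen, the remaining 17 enzymes had a ratio to wt of 0.694 (0.687 to 0.701) in ARPC4 ko and 0.912 (0.904 to 0.921) in Nrf2-EGFP. These 17 still include Fdps and Lss, which were 1.69-fold and 1.58-fold lower than wt in Nrf2-EGFP. The ratio of 0.912 therefore does not show that the other enzymes were lower there.

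**Figure D1:**
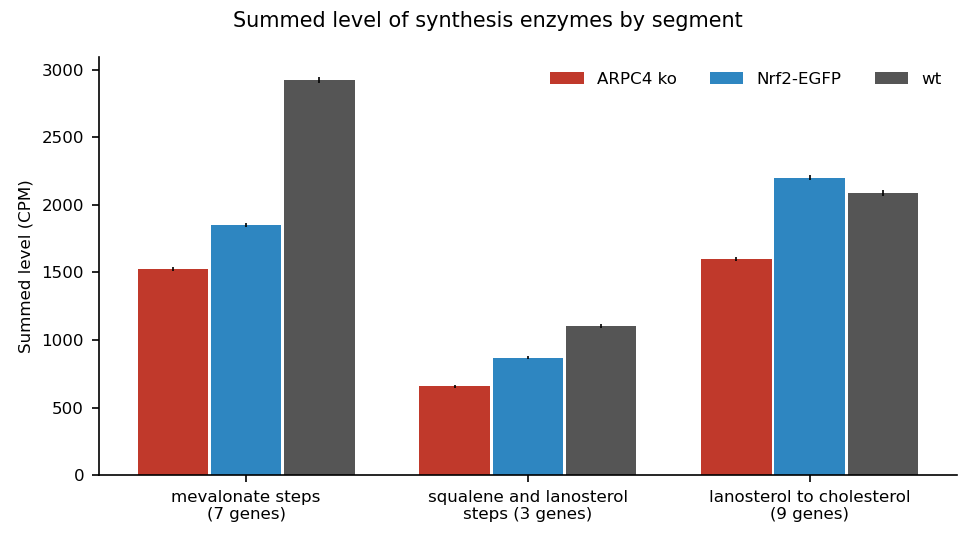
Summed level of the synthesis enzymes (CPM, linear axis from 0) in each segment of the pathway, with 1 bar per library (ARPC4 ko, Nrf2-EGFP, wt) and exact 95% Poisson intervals for counting error. The mevalonate bars stand at 1526, 1851 and 2926 CPM, whereas from lanosterol to cholesterol the Nrf2-EGFP bar (2203 CPM) stands slightly above that of wt (2088 CPM).

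Among the mevalonate steps, Idi1, Hmgcs1 and Fdps were furthest from wt. Idi1 (ENSMUSG00000058258, chromosome 13, 8885501 to 8892451 in mm10) encodes the isomerase that makes dimethylallyl pyrophosphate, and it had 364 CPM in ARPC4 ko, 473 in Nrf2-EGFP and 831 in wt. It was lower than in wt by 2.28-fold (2.22 to 2.34) in ARPC4 ko and by 1.76-fold (1.72 to 1.80) in Nrf2-EGFP, and 1.33% of all genes compared had a lower log2 fold in ARPC4 ko. Hmgcs1 (ENSMUSG00000093930, chromosome 13, 119690379 to 119708260), the cytosolic synthase that condenses acetoacetyl-CoA and acetyl-CoA to HMG-CoA, had 600.1 CPM in ARPC4 ko, 742 in Nrf2-EGFP and 1222 in wt. Its differences were 2.04-fold (1.996 to 2.08) and 1.65-fold (1.62 to 1.68) lower than in wt. Fdps (ENSMUSG00000059743, chromosome 3, 89093588 to 89101959), which makes farnesyl pyrophosphate, had 254 CPM in ARPC4 ko, 272 in Nrf2-EGFP and 459.9 in wt and was lower by 1.81-fold (1.75 to 1.87) and 1.69-fold (1.64 to 1.74). For all 3 genes both engineered libraries lay below wt, and for Fdps the engineered libraries lay close together, with a ratio of ARPC4 ko to Nrf2-EGFP of 0.935 (0.903 to 0.968).

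The other mevalonate genes had smaller differences. Mvd, the decarboxylase that yields isopentenyl pyrophosphate, had 83.5 CPM in ARPC4 ko, 100.2 in Nrf2-EGFP and 129 in wt, 1.54-fold (1.45 to 1.63) lower than wt in ARPC4 ko and 1.28-fold (1.22 to 1.36) lower in Nrf2-EGFP. The phosphomevalonate kinase gene Pmvk had 50.3 CPM in ARPC4 ko, 54.6 in Nrf2-EGFP and 68.5 in wt, lower by 1.36-fold (1.26 to 1.47) and 1.25-fold (1.17 to 1.35). For the mevalonate kinase gene Mvk the levels were 65.6 CPM in ARPC4 ko, 83.8 in Nrf2-EGFP and 84.7 in wt. Mvk was thus 1.29-fold (1.21 to 1.38) lower in ARPC4 ko, while its ratio of Nrf2-EGFP to wt, 0.990 (0.930 to 1.05), had an interval that includes 1. Acat2, the cytosolic thiolase that starts the pathway, had 108 CPM in ARPC4 ko, 126 in Nrf2-EGFP and 131 in wt, and it too was lower in ARPC4 ko, by 1.21-fold (1.15 to 1.28), with a ratio of Nrf2-EGFP to wt of 0.963 (0.916 to 1.01). All 7 log2 folds of this segment were below 0 in both comparisons, with medians of -0.62 in ARPC4 ko and -0.36 in Nrf2-EGFP.

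**Figure D2:**
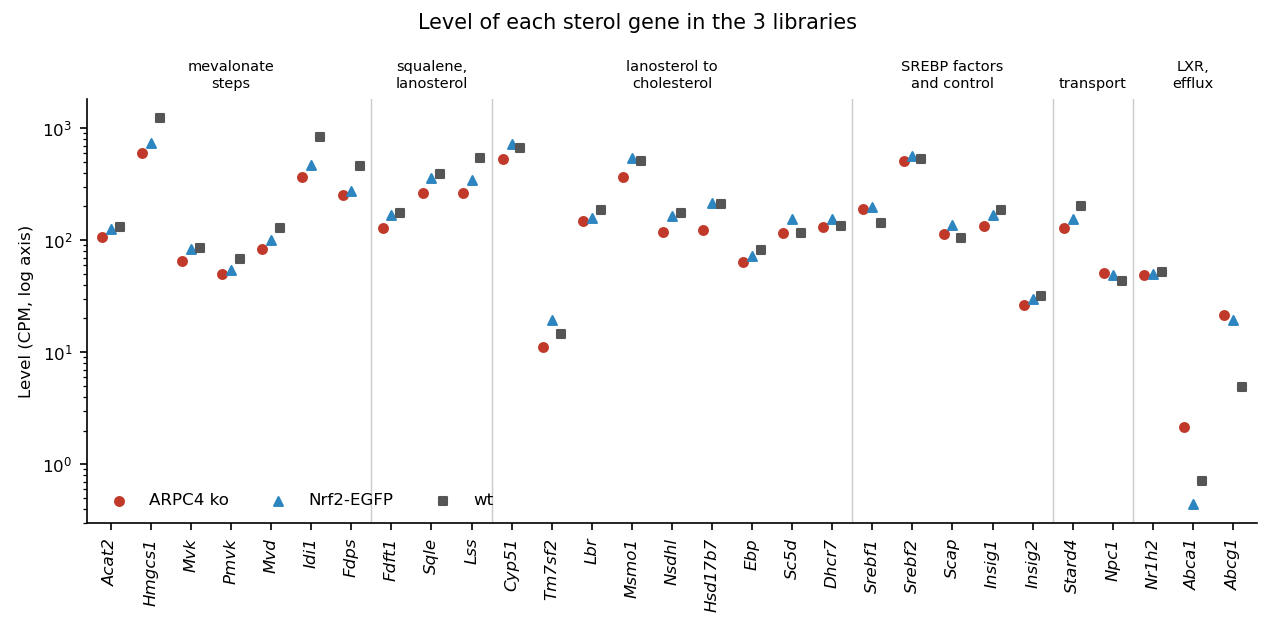
Level of each of the 29 genes (CPM, log axis) in the ARPC4 ko (circles), Nrf2-EGFP (triangles) and wt (squares) libraries, with genes ordered by their place in the pathway and 1 point per library. Hmgcs1, Idi1, Fdps and Lss are highest in wt, and Abcg1 is lowest in wt, at 4.85 CPM.

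Of the enzymes from farnesyl pyrophosphate to lanosterol, Lss stood furthest from wt. Lss (ENSMUSG00000033105, chromosome 10, 76531588 to 76557138), the cyclase that closes the sterol rings, had 265 CPM in ARPC4 ko, 344 in Nrf2-EGFP and 542 in wt, lower by 2.05-fold (1.99 to 2.11) in ARPC4 ko and 1.58-fold (1.53 to 1.62) in Nrf2-EGFP. Sqle, the rate-limiting squalene epoxidase, had 265 CPM in ARPC4 ko, 357 in Nrf2-EGFP and 386 in wt. Its difference was 1.46-fold (1.41 to 1.51) in ARPC4 ko, just under the 1.5-fold rule, and 1.08-fold (1.05 to 1.11) in Nrf2-EGFP, both lower than in wt. Fdft1, squalene synthase, had 129 CPM in ARPC4 ko, 167 in Nrf2-EGFP and 174 in wt, which is 1.35-fold (1.29 to 1.42) lower in ARPC4 ko, with a ratio of Nrf2-EGFP to wt of 0.960 (0.918 to 1.003). Sqle and Fdft1 were thus near wt in Nrf2-EGFP, where Lss was not.

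From lanosterol onward, 8 of 9 genes had a log2 fold below 0 in ARPC4 ko (median -0.35), and 6 of 9 had one above 0 in Nrf2-EGFP (median 0.08). Hsd17b7 (ENSMUSG00000026675, chromosome 1, 169949535 to 169969241), the 3-keto sterol reductase, had 123 CPM in ARPC4 ko, 216 in Nrf2-EGFP and 212 in wt. It was the member of this segment furthest below wt in ARPC4 ko, by 1.72-fold (1.64 to 1.80), and its ratio of Nrf2-EGFP to wt was 1.018 (0.979 to 1.06). The demethylase subunits Nsdhl and Msmo1 remove the methyl groups at carbon 4. Nsdhl had 118 CPM in ARPC4 ko, 164 in Nrf2-EGFP and 174 in wt, and Msmo1 had 363 CPM in ARPC4 ko, 539 in Nrf2-EGFP and 510.2 in wt. In ARPC4 ko they were 1.48-fold (1.41 to 1.55) and 1.41-fold (1.37 to 1.45) lower than in wt, Nsdhl just under the 1.5-fold rule. Cyp51, the lanosterol 14-demethylase, had 525 CPM in ARPC4 ko, 726 in Nrf2-EGFP and 659 in wt, so it was 1.25-fold (1.22 to 1.28) lower in ARPC4 ko and 1.102-fold (1.08 to 1.13) higher in Nrf2-EGFP than in wt.

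Sc5d and Dhcr7, at the end of the pathway, lay within counting error of wt in ARPC4 ko and above wt in Nrf2-EGFP. Sc5d, a desaturase, had 116 CPM in ARPC4 ko, 154 in Nrf2-EGFP and 116 in wt, a ratio to wt of 1.004 (0.952 to 1.06) in ARPC4 ko and 1.33 (1.26 to 1.40) in Nrf2-EGFP. Dhcr7, the reductase of the last step from 7-dehydrocholesterol, had 130.5 CPM in ARPC4 ko, 156 in Nrf2-EGFP and 135 in wt, with ratios of 0.966 (0.919 to 1.016) and 1.15 (1.1 to 1.21), and its log2 fold in ARPC4 ko, -0.05, became 0.06 with scaling by total counts. These 2 genes had the highest log2 folds of all 19 enzymes in ARPC4 ko. Ebp, the isomerase that acts before them, had 64.5 CPM in ARPC4 ko, 72.7 in Nrf2-EGFP and 81.6 in wt, lower by 1.27-fold (1.18 to 1.35) and 1.123-fold (1.05 to 1.20). The 14-reductase step has a pair of enzymes, Tm7sf2 and the nuclear envelope protein Lbr. Tm7sf2 was the least counted enzyme, with 269 counts in ARPC4 ko, 481 in Nrf2-EGFP and 329 in wt, and had 11.1 CPM in ARPC4 ko, 19.4 in Nrf2-EGFP and 14.6 in wt, which is 1.32-fold (1.122 to 1.56) lower than wt in ARPC4 ko and 1.32-fold (1.15 to 1.53) higher in Nrf2-EGFP. Lbr had 147 CPM in ARPC4 ko, 156 in Nrf2-EGFP and 187 in wt and was lower in both, by 1.27-fold (1.22 to 1.33) and 1.20-fold (1.14 to 1.25).

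**Figure D3:**
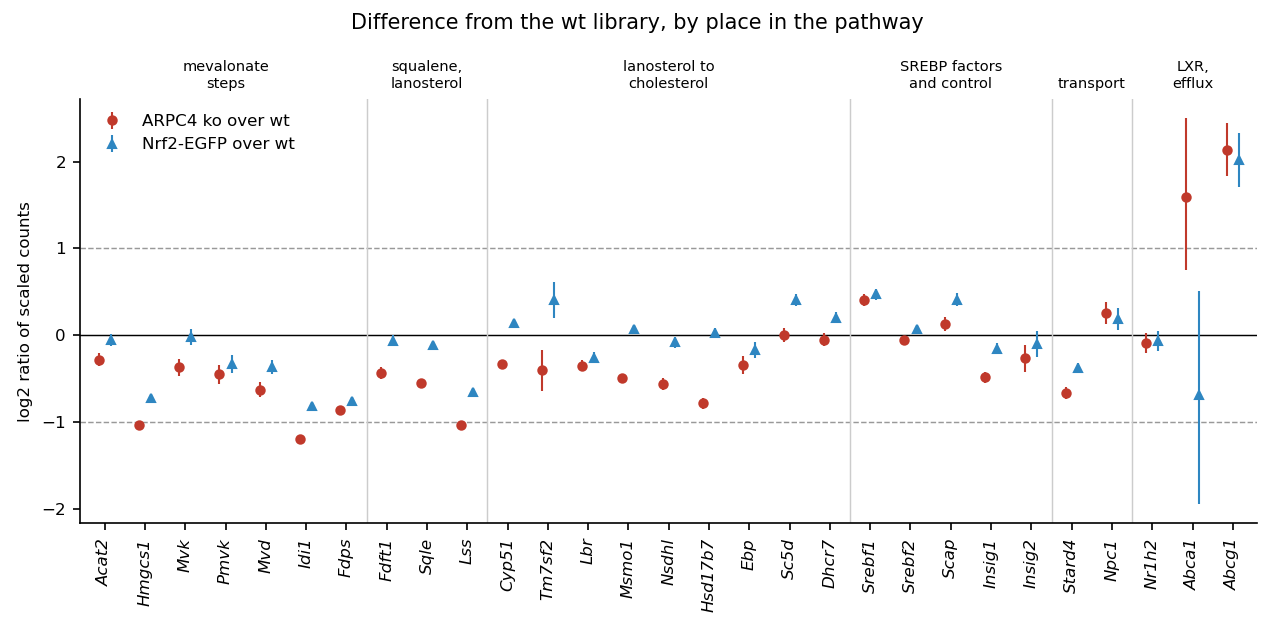
Log2 ratio of scaled counts (no pseudocount) of ARPC4 ko to wt (circles) and Nrf2-EGFP to wt (triangles) for the 29 genes by place in the pathway, with exact 95% counting intervals as bars and dashed lines at a 2-fold difference. From lanosterol to cholesterol the triangles lie around 0 while most circles lie below it, and Abcg1 is above the upper dashed line in both.

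The relative abundance of the enzymes also differed between libraries. On a scale per length (TPM, counts per base of annotated exon, scaled to 1 sum in all libraries), Hmgcs1 had 532 TPM in ARPC4 ko, 599 in Nrf2-EGFP and 966 in wt, and Cyp51 had 485 TPM in ARPC4 ko, 609 in Nrf2-EGFP and 542 in wt. The ratio of Hmgcs1 to Cyp51 was therefore 1.098 in ARPC4 ko, 0.982 in Nrf2-EGFP and 1.78 in wt. Hmgcs1 had the highest TPM of all 29 genes in ARPC4 ko and wt, and Cyp51 in Nrf2-EGFP. Lengths were all annotated exon bases of a gene, not those of the transcripts expressed. Ranks and ratios between genes, here and below, therefore depend on the annotation. Idi1 ranked 3 in ARPC4 ko and Nrf2-EGFP and 2 in wt, at 423 TPM in ARPC4 ko, 499.8 in Nrf2-EGFP and 861 in wt. The ratio of Hmgcs1 to Dhcr7, an early enzyme and the last one, was 5.82 in ARPC4 ko, 6.03 in Nrf2-EGFP and 11.5 in wt. The lowest TPM belonged to Abca1 in all 3 libraries, at 0.841 TPM in ARPC4 ko, 0.158 in Nrf2-EGFP and 0.249 in wt.

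The SREBP genes themselves did not follow the enzymes. Srebf2, the source of SREBP-2, the main activator of sterol genes, had 513 CPM in ARPC4 ko, 561 in Nrf2-EGFP and 532 in wt, with ratios to wt of 0.964 (0.940 to 0.989) in ARPC4 ko and 1.05 (1.03 to 1.08) in Nrf2-EGFP. With scaling by total counts its log2 fold in ARPC4 ko was 0.05, in place of -0.05. Srebf1, the source of SREBP-1, which favours fatty acid genes, had 190.1 CPM in ARPC4 ko, 199 in Nrf2-EGFP and 143 in wt, so it was 1.33-fold (1.27 to 1.39) and 1.39-fold (1.33 to 1.45) higher than in wt. Per length, Srebf2 exceeded Srebf1 by a factor of 2.12 in ARPC4 ko, 2.21 in Nrf2-EGFP and 2.91 in wt. Scap had 114 CPM in ARPC4 ko, 138 in Nrf2-EGFP and 104 in wt, and was 1.097-fold (1.04 to 1.16) and 1.33-fold (1.26 to 1.40) higher. These are RNA levels of the precursors, and their cleavage was not measured.

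Insig1, whose gene is itself an SREBP target and closes a feedback loop, had 134 CPM in ARPC4 ko, 168 in Nrf2-EGFP and 187 in wt, lower than wt by 1.40-fold (1.33 to 1.46) in ARPC4 ko and 1.11-fold (1.07 to 1.16) in Nrf2-EGFP. Insig2, the second retention protein, had 26.5 CPM in ARPC4 ko, 29.6 in Nrf2-EGFP and 31.8 in wt, lower by 1.20-fold (1.08 to 1.34) in ARPC4 ko and with a ratio of Nrf2-EGFP to wt of 0.933 (0.840 to 1.04). Per length Insig1 exceeded Insig2 by a factor of 5.69 in ARPC4 ko, 6.38 in Nrf2-EGFP and 6.62 in wt. None of the 5 genes of SREBP control passed the 1.5-fold rule, which 17.1% of all genes did in ARPC4 ko and 14.3% in Nrf2-EGFP. Their median log2 fold was -0.05 in ARPC4 ko (0.05 if scaled by total counts) and 0.08 in Nrf2-EGFP.

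The 2 genes of sterol transport inside the cell differed in direction. Stard4, a soluble carrier that moves cholesterol between membranes and is an SREBP target, had 127 CPM in ARPC4 ko, 156 in Nrf2-EGFP and 202 in wt, lower than in wt by 1.59-fold (1.51 to 1.66) in ARPC4 ko and 1.296-fold (1.24 to 1.35) in Nrf2-EGFP. Npc1, the lysosomal membrane protein that exports cholesterol from endocytosed lipoprotein, had 51.4 CPM in ARPC4 ko, 48.9 in Nrf2-EGFP and 43.0 in wt, higher by 1.20-fold (1.099 to 1.302) and 1.14-fold (1.05 to 1.24). Stard4 thus lay with the synthesis enzymes and passed the 1.5-fold rule in ARPC4 ko, whereas Npc1 was slightly above wt in both.

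Abcg1 had the largest fold of the 29 genes in both comparisons with wt. Abcg1 (ENSMUSG00000024030, chromosome 17, 31057675 to 31117988), which exports cholesterol to lipoprotein particles, had 518 counts in ARPC4 ko, 486 in Nrf2-EGFP and 109 in wt. That is 21.3 CPM in ARPC4 ko, 19.6 in Nrf2-EGFP and 4.85 in wt, or 4.40-fold (3.57 to 5.46) higher in ARPC4 ko and 4.04-fold (3.27 to 5.01) higher in Nrf2-EGFP than in wt. Between the engineered libraries the Abcg1 counts differed by less than counting error, with a ratio of ARPC4 ko to Nrf2-EGFP of 1.09 (0.961 to 1.24). Abca1, the transporter that loads lipid-free apolipoprotein, was counted rarely, with 52 counts in ARPC4 ko, 11 in Nrf2-EGFP and 16 in wt, or 2.14 CPM in ARPC4 ko, 0.443 in Nrf2-EGFP and 0.712 in wt. It was 3.01-fold (1.69 to 5.64) higher in ARPC4 ko, and its ratio of Nrf2-EGFP to wt, 0.622 (0.261 to 1.43), had an interval that includes 1. Nr1h2, which encodes LXR beta, had 48.6 CPM in ARPC4 ko, 49.5 in Nrf2-EGFP and 51.6 in wt, with intervals of both ratios to wt that include 1. Its relative Nr1h3, which encodes LXR alpha, had 20 counts in ARPC4 ko, 3 in Nrf2-EGFP and 16 in wt and did not pass the filter (named here after its values were seen).

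Counted over all 29 genes, 3 were lower in ARPC4 ko than in wt past the 2-fold rule (Idi1, Hmgcs1 and Lss) and 2 were higher (Abca1 and Abcg1). Of all genes compared, 6.76% passed that rule, 2.06% lower and 4.7% higher. Past the 1.5-fold rule 7 were lower, the same 3 with Fdps, Hsd17b7, Stard4 and Mvd, and the same 2 were higher, against 6.24% and 10.8% of all genes. In Nrf2-EGFP against wt, Abcg1 was higher and none was lower past the 2-fold rule (3.57% and 2.05% of all genes, together 5.61%), and past the 1.5-fold rule 4 were lower, namely Idi1, Fdps, Hmgcs1 and Lss, with Abcg1 higher (5.72% and 8.61%). Hmgcs1 and Lss were near the 2-fold limit in ARPC4 ko, and Mvd and Stard4 near the 1.5-fold limit. With scaling by total counts none of these 4 passed the limit it was near. Abca1, with few counts, did not pass the 2-fold rule in ARPC4 ko with a pseudocount of 2 CPM, and a filter of 10 CPM removes it. It reached 1 CPM in ARPC4 ko alone (2.14 CPM, against 0.443 in Nrf2-EGFP and 0.712 in wt). The filter therefore kept Abca1 only through the library where it was highest, and its count as higher depends on that. The median log2 fold of the 29 genes was -0.37 in ARPC4 ko, with 23 below 0, and -0.06 in Nrf2-EGFP, with 18 below 0.

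Set directly against Nrf2-EGFP, the ARPC4 ko library had lower levels of every synthesis enzyme. All 19 log2 folds of ARPC4 ko over Nrf2-EGFP were below 0, with a median of -0.37, as were 52.9% of all genes (47.1% were above 0). With scaling by total counts 16 of the 19 were below 0, since Pmvk, Fdps and Lbr turned slightly positive. On the lower side Hsd17b7, by 1.75-fold (1.67 to 1.83), and Tm7sf2, by 1.75-fold (1.504 to 2.04), passed the 1.5-fold rule, as did 3.38% of all genes. Abca1 passed it on the higher side, as did 5.85% of all genes (9.23% on either side). None of the 29 was lower past the 2-fold rule (0.961% of all genes). Msmo1 was 1.48-fold (1.44 to 1.52) lower, and the median was -0.47 from lanosterol to cholesterol, against -0.26 in the mevalonate steps. The widest gap between these libraries was in Abca1, 4.83-fold (2.49 to 10.3) higher in ARPC4 ko, a gene with few counts and the only one of the 29 past the 2-fold rule on the higher side (2.01% of all genes, or 2.98% on either side). Abca1 passed the filter through the ARPC4 ko library alone, where it was highest. This comparison uses the same libraries as the 2 before it and is not independent of them.

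**Figure D4:**
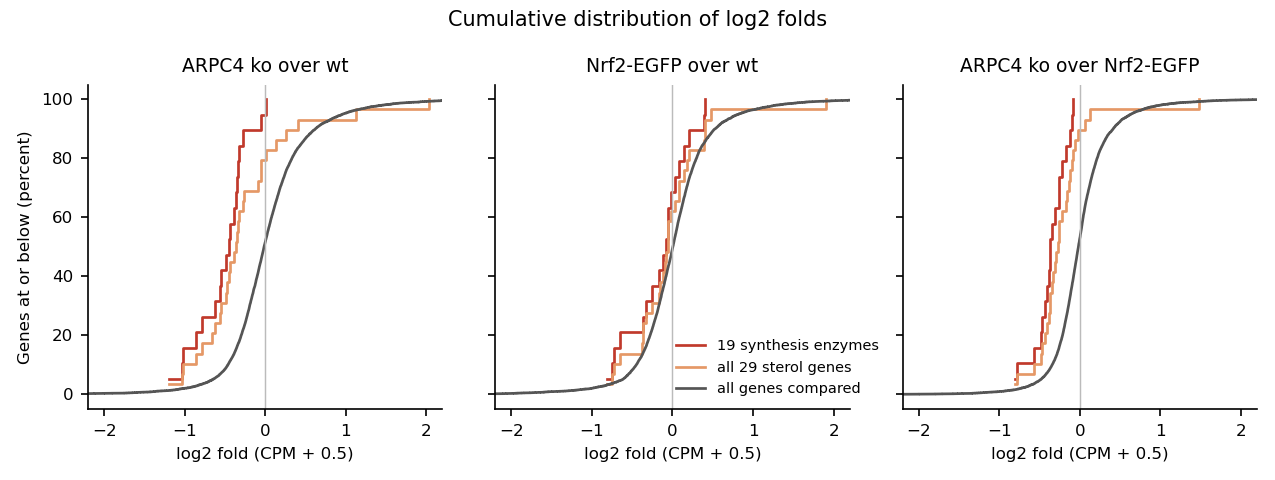
Cumulative percentage of genes at or below each log2 fold (of CPM + 0.5) for the 19 synthesis enzymes, all 29 sterol genes and all 11865 genes compared, with 1 panel per pair of libraries. The enzyme curve lies left of all genes in ARPC4 ko over wt (median -0.44) and ARPC4 ko over Nrf2-EGFP (median -0.37). In Nrf2-EGFP over wt its median is nearer that of all genes (-0.08 against 0.0049). There 13 of 19 enzymes lie below 0, against 49.5% of all genes.

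Neighbouring pathways were described from 6 lists of related genes. Fatty acid genes driven by SREBP-1 had none of 16 members that passed the filter past the 2-fold rule in either comparison with wt. In ARPC4 ko 5 were lower past the 1.5-fold rule and none higher (median -0.20), or 3 lower and 1 higher if scaled by total counts, and in Nrf2-EGFP 1 was lower and 1 higher (median 0.11). Of all genes, 6.24% were lower and 10.8% higher by this rule in ARPC4 ko, and 5.72% and 8.61% in Nrf2-EGFP. Fasn, fatty acid synthase, had 874 CPM in ARPC4 ko, 1556 in Nrf2-EGFP and 1489 in wt, 1.70-fold (1.68 to 1.73) lower in ARPC4 ko and with a ratio of Nrf2-EGFP to wt of 1.04 (1.03 to 1.06). Acss2, a cytosolic acetyl-CoA synthetase, had 12.5 CPM in ARPC4 ko, 15.1 in Nrf2-EGFP and 25.3 in wt, lower than wt by 2.02-fold (1.76 to 2.33) and 1.68-fold (1.47 to 1.92), and its log2 fold of CPM + 0.5 in ARPC4 ko, -0.99, was just short of the 2-fold rule. Mid1ip1, a regulator of acetyl-CoA carboxylase, and the elongase Elovl6 were 1.92-fold (1.81 to 2.04) and 1.61-fold (1.53 to 1.70) lower in ARPC4 ko. The member higher in Nrf2-EGFP was the desaturase Fads1, with 204 CPM in ARPC4 ko, 301 in Nrf2-EGFP and 187 in wt, and it was named after its value was seen.

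Sterol uptake, storage and release genes differed in both directions. Of 15 members, 2 were higher past the 2-fold rule in both libraries (4.7% of all genes in ARPC4 ko and 3.57% in Nrf2-EGFP), and 1 was lower in ARPC4 ko (2.06%). With a pseudocount of 2 CPM, 1 was higher in ARPC4 ko, in place of 2, and the other counts did not change. Lrp1, a receptor for remnant lipoproteins, had 59.4 CPM in ARPC4 ko, 47.6 in Nrf2-EGFP and 21.0 in wt, higher than wt by 2.83-fold (2.55 to 3.15) and 2.27-fold (2.04 to 2.53). Lipa, the lysosomal lipase that frees cholesterol from its esters, had 22.3 CPM in ARPC4 ko, 23.2 in Nrf2-EGFP and 10.2 in wt, higher by 2.18-fold (1.86 to 2.55) and 2.27-fold (1.94 to 2.65). Vldlr, another lipoprotein receptor, had 13.6 CPM in ARPC4 ko, 36.8 in Nrf2-EGFP and 49.0 in wt, so it was 3.61-fold (3.19 to 4.10) lower in ARPC4 ko and 1.33-fold (1.22 to 1.45) lower in Nrf2-EGFP. The caveolar protein gene Cav1 had 205 CPM in ARPC4 ko, 264 in Nrf2-EGFP and 298 in wt. The list medians were -0.01 in ARPC4 ko (0.09 if scaled by total counts) and 0.18 in Nrf2-EGFP.

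Of 11 LXR partners, LXR targets and oxysterol enzymes, 8 passed the filter. Ch25h, which makes 25-hydroxycholesterol, an oxysterol that holds SREBP in the endoplasmic reticulum, had 257 counts in ARPC4 ko, 82 in Nrf2-EGFP and 27 in wt. It was higher than in wt by 8.80-fold (5.91 to 13.6) in ARPC4 ko and 2.75-fold (1.76 to 4.42) in Nrf2-EGFP, the largest fold of these lists upward. Mylip, an LXR target that degrades lipoprotein receptors, had 15.8 CPM in ARPC4 ko, 10.4 in Nrf2-EGFP and 10.1 in wt and was 1.57-fold (1.33 to 1.86) higher in ARPC4 ko. Abca12, which loads lipid into the lamellar granules of differentiating keratinocytes, had 35.1 CPM in ARPC4 ko, 60.1 in Nrf2-EGFP and 184 in wt, lower by 5.22-fold (4.85 to 5.63) and 3.05-fold (2.88 to 3.24). Sult2b1, which sulfates cholesterol in the upper epidermis, had 19.05 CPM in ARPC4 ko, 16.1 in Nrf2-EGFP and 32.9 in wt, lower by 1.73-fold (1.54 to 1.94) and 2.04-fold (1.81 to 2.31). Past the 2-fold rule 1 member was higher and 1 lower in ARPC4 ko (4.7% and 2.06% of all genes), and 1 higher and 2 lower in Nrf2-EGFP (3.57% and 2.05%). With a pseudocount of 2 CPM, 0 were higher and 1 was lower in Nrf2-EGFP, and the ARPC4 ko counts did not change. The list medians were 0.16 in ARPC4 ko and -0.11 in Nrf2-EGFP.

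No member of the 3 remaining lists passed the 2-fold rule against wt. Other genes of SREBP processing and sterol-regulated degradation had 2 of 9 members lower past the 1.5-fold rule in ARPC4 ko (6.24% of all genes) and none in Nrf2-EGFP (5.72%). These were Rnf145, a ubiquitin ligase, with 103 CPM in ARPC4 ko, 220.3 in Nrf2-EGFP and 186 in wt, and Erlin1, a sterol-sensing membrane scaffold, with 68.0 CPM in ARPC4 ko, 92.4 in Nrf2-EGFP and 113 in wt. Rnf145 was also 2.15-fold (2.05 to 2.25) lower in ARPC4 ko than in Nrf2-EGFP. The medians of that list were -0.0024 in ARPC4 ko, or 0.10 with scaling by total counts, and 0.33 in Nrf2-EGFP, where Mbtps2, which encodes a protease that cleaves SREBP, was 1.35-fold (1.26 to 1.44) higher than in wt. None of 10 genes of the isoprenoid branches passed the 1.5-fold rule on either side (17.1% of all genes in ARPC4 ko and 14.3% in Nrf2-EGFP), with medians of -0.18 and -0.01, and Fntb, a subunit of farnesyltransferase, had their largest log2 fold, -0.42 in Nrf2-EGFP. Pggt1b, Nus1 and Ggps1 had log2 folds of -0.19, -0.26 and 0.21 in ARPC4 ko and -0.30, -0.05 and 0.06 in Nrf2-EGFP. Of 5 genes listed with the electron donors of sterol oxidases, Por, the reductase that feeds Cyp51 and Sqle, was higher than wt in both libraries. The difference was 1.32-fold (1.26 to 1.38) in ARPC4 ko and 1.52-fold (1.45 to 1.59) in Nrf2-EGFP. In Nrf2-EGFP Por was the 1 gene of the 5 past the 1.5-fold rule (8.61% of all genes were higher by it). Scaled by total counts, no gene of the 5 passed that rule in Nrf2-EGFP. The other genes named from this list, Cyb5a, Pgrmc1 and Cyb5b, had log2 folds between -0.22 and -0.02 in ARPC4 ko and between -0.33 and 0.24 in Nrf2-EGFP. The list's medians were -0.02, or 0.08 with scaling by total counts, and 0.11.

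**Figure D5:**
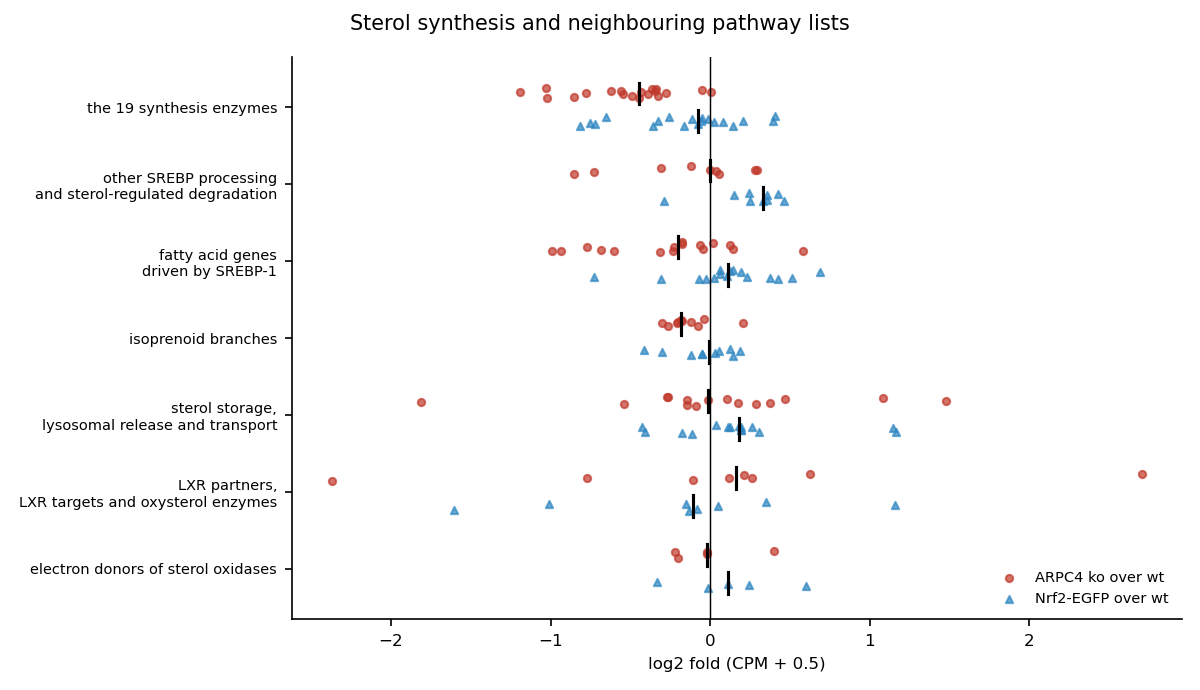
Log2 fold (of CPM + 0.5) against wt of each gene that passed the filter in the 19 synthesis enzymes and in 6 neighbouring lists, with circles for ARPC4 ko, triangles for Nrf2-EGFP and black ticks for list medians (points are spread vertically for clarity). The synthesis enzymes have the lowest median in ARPC4 ko (-0.44), and single genes such as Ch25h (2.70), Vldlr (-1.81) and Abca12 (-2.37) lie far from the medians of their lists.

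Some counts are less certain than their intervals say. Stretches of at least 95% identity with another counted gene, longer than 500 bases, were found for Acat2 (Acat3, 1477 bases), Fdft1 (Gm6781, 1249), Fdps (Gm5873, 1066), Idi1 (Gm13502, 684) and Tm7sf2 (Vps51, 532). Acat3 had 18 counts in ARPC4 ko, 12 in Nrf2-EGFP and 11 in wt, and the 3 predicted genes had at most 1 count in any library. Tm7sf2 shares an annotated stretch with Vps51, which overlaps it on the same strand and had 875 counts in ARPC4 ko, 948 in Nrf2-EGFP and 877 in wt. On the opposite strand, the expressed genes Ctsb, Akap9, Rai1 and Rmc1 overlap Fdft1, Cyp51, Srebf1 and Npc1. Whether counting used the strand of the reads is not stated in the sources used here.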

How the data were processed

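The authors deposited a table of raw read counts for each library, with 41214 Ensembl identifiers. Libraries were stranded and read single-end at 65 bp, per the labels' protocols. TopHat2 2.1.0, Bowtie 1.1, HTSeq and the mm10 build were used, per the submitters' processing notes. Their settings are not stated in the sources used here. Non-gene totals (8.22% of entries in ARPC4 ko, 8.48% in Nrf2-EGFP, 9.08% in wt) were left out.

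GENCODE M21 (GRCm38) named 40254 identifiers and gave coordinates and exon lengths. Libraries were scaled with TMM in edgeR 4.0.16 under R 4.3.3, with factors of 1.06 for ARPC4 ko, 0.966 for Nrf2-EGFP and 0.981 for wt. The filter was a level of 1 CPM in any library, and log2 folds used a pseudocount of 0.5 CPM. Intervals are Clopper-Pearson intervals given the sum of both counts (SciPy 1.17.1). Reads carried no molecular identifiers, so intervals and the floor of 3 counts for a listed 0 cover counting error only. Similar transcripts were searched with BLAST 2.17.0. The steps were tested on simulated data.

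The genes, lists and rules were chosen with earlier results of these data known. All 29 genes are named, with up to 4 of each list by size of log2 fold, of which 1 is not reported here. Alternatives were total counts or DESeq2 1.42.0 size factors, no filter or 10 CPM, and pseudocounts of 2 and 0.1 CPM.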

Additional observations from a re-analysis of the deposited data

How the results depend on the processing

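Scaling by total counts put the median of all genes at 0.09 in ARPC4 ko against wt and at 0.11 in ARPC4 ko against Nrf2-EGFP. It left 3 of the 29 genes past the 2-fold rule in ARPC4 ko against wt, in place of 5 (without Hmgcs1 and Lss), and the median of the 29 was -0.26 there and -0.15 in ARPC4 ko against Nrf2-EGFP. Relative to the median of all genes, that of the 29 in ARPC4 ko against wt was -0.35 under either scaling. With a filter of 10 CPM, or a pseudocount of 2 CPM, 0 of the 29 genes passed the 2-fold rule in ARPC4 ko against Nrf2-EGFP, in place of 1, Abca1, which has few counts. Under these same alternatives Abca1 also did not pass the 2-fold rule in ARPC4 ko against wt, which left 1 gene higher in place of 2. With the 10 CPM filter, which removes Abca1, the 1.5-fold rule left 1 gene higher in place of 2 in ARPC4 ko against wt and 0 in place of 1 in ARPC4 ko against Nrf2-EGFP. Over all genes, the 2-fold rule with the 10 CPM filter gave 253 higher and 121 lower in ARPC4 ko against wt, in place of 558 and 244. In Nrf2-EGFP against wt it gave 242 and 92, in place of 423 and 243, and in ARPC4 ko against Nrf2-EGFP 52 and 62, in place of 239 and 114. With the pseudocount of 2 CPM these were 311 and 143, 258 and 104, and 80 and 67, in the same order. Of 519 single log2 folds recomputed, 51 lay outside the counting interval of the reported value, 8 near 0 changed sign, and no gene past the 1.5-fold rule did.

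No paired analysis was possible because each group has 1 library, which also leaves none to omit. The spread between cultures is unknown, and genotype and culture cannot be told apart. Depth limits genes with few counts, such as Abca1, Nr1h3 and Ch25h, with 16, 16 and 27 counts in wt.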
